A study of Mus musculus with 36 samples.

Results

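The genes described here are 10 members of the transforming growth factor beta (TGF-beta) pathway, out of 36172 gene entries measured in mouse hippocampus. They are the ligands Tgfb1, Tgfb2 and Tgfb3, the integrin subunit Itgb8, the receptors Tgfbr1 and Tgfbr2, the signal-carrying Smad2 and Smad3, the inhibitory Smad7 and the co-repressor Ski. They were chosen by gene symbol, each symbol matched 1 entry, and all 10 passed the filter on low counts in every comparison. The lowest estimated count of any of them was 67.2, for Tgfb1 in an input library. In the pulldown of ribosomes from Cx3cr1-expressing cells of old mice, Tgfb1, Tgfbr1 and Tgfbr2 were 18.1, 13.5 and 10.0 times as high as in whole hippocampus, whereas Tgfb2, Tgfb3 and Itgb8 were lower. In whole hippocampus, the same 3 enriched genes and Smad7 were higher in both old groups than in young mice.

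All mice carried the genotype labelled Cx3cr1-NuTRAP, in which cre, activated by tamoxifen and driven by the Cx3cr1 promoter, turns on a ribosomal protein tagged with GFP. Cx3cr1 encodes a chemokine receptor of microglia that border macrophages also use. RNA on tagged ribosomes was collected with an anti-GFP antibody (translating ribosome affinity purification, TRAP), and part of the cleared homogenate was set aside beforehand as input, which represents the whole tissue. The inputs came from 10 young early-induced mice (5 females, 5 males), 12 old early-induced mice (7 females, 5 males) and 7 old late-induced mice (5 females, 2 males), and each of the latter 7 mice also gave the TRAP library of its group. The labels name ages of 6 and 22 months, give induction only as early or late, and each library comes from 1 animal. Every group carried the transgenes and was induced, so no group without cre enters any comparison, and no TRAP library of an early-induced mouse was used here.

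Each library held between 12.9 and 20.4 M estimated counts, and no 2 libraries of a group agreed within sampling noise (chi-square per degree of freedom from 3.58 to 45.3 over 153 pairs). Expression is given in CPM, counts divided by the scaled library size, and thus without correction for gene length. The summed level of 15 microglial markers was 528 to 629 CPM in young inputs, 728 to 898 in old early-induced inputs, 790 to 1173 in old late-induced inputs and 14250 to 23230 in TRAP, and none of the 15 was at 0. All 8 markers of border macrophages, cells that also use Cx3cr1, were higher in TRAP as well (median log2 fold change 3.81), and so were all 8 endothelial markers (median 1.15). Markers of oligodendrocytes were lower in TRAP in 10 of 10 cases and those of astrocytes in 9 of 10. Old early-induced replicate 5 stood apart: its root mean square distance from its group mean was 0.391 on the log2 scale against 0.307 for the next library, and its summed blood markers were 2274 CPM against 394. The labels end in a number after the letter S, whose meaning they do not give. The 3 input groups occupy separate stretches of these numbers, so effects of group and of whatever the numbers stand for cannot be told apart.

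TGF-beta ligands are secreted as latent complexes that are held in the matrix or on cell surfaces until integrins or other activators release them. Active ligand binds the type II receptor Tgfbr2, which engages the type I receptor Tgfbr1, and this kinase phosphorylates Smad2 and Smad3, which enter the nucleus with Smad4. Smad7 is induced by the pathway and blocks the receptors, and Ski represses Smad-bound genes. In the brain, TGF-beta signalling to microglia through Tgfbr2 is known to maintain the gene programme that distinguishes them from other macrophages, and Itgb8 on neighbouring cells is known to activate the ligand.

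The sequences before the transcription starts of the members that were at least 2-fold higher in TRAP are shown because these genes share that enrichment. They are the 250 bases upstream of each start in RefSeq on GRCm38.p6, written 5' to 3' on the strand of the gene, and Tgfbr1 has an additional annotated start inside the gene. Capitals mark the letters GAGGAAG, as in binding sites of the myeloid factor PU.1, and CAGAC, the Smad box, both searched on both strands.
Tgfb1, chr7:25686752-25687001, plus strand: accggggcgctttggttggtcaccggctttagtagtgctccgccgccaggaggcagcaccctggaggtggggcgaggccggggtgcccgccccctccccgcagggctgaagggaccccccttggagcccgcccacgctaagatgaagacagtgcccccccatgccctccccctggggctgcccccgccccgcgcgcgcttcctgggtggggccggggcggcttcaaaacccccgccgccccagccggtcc
Tgfbr1, chr4:47352972-47353221, plus strand: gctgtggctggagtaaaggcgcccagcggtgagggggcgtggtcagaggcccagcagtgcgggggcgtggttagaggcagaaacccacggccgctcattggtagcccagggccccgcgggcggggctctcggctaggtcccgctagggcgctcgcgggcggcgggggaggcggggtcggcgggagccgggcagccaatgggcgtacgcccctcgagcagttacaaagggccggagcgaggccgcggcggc
Tgfbr1 internal start, chr4:47385966-47386215, plus strand: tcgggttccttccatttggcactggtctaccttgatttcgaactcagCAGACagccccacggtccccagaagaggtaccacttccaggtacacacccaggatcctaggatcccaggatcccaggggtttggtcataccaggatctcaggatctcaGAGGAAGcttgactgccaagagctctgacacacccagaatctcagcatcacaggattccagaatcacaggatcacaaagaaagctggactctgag
Tgfbr2, chr9:116175364-116175613, minus strand: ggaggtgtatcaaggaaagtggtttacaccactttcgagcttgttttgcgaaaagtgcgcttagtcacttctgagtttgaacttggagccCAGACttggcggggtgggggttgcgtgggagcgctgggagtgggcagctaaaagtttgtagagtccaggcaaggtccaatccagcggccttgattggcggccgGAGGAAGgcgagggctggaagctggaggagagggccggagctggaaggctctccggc
Ski, chr4:155222536-155222785, minus strand: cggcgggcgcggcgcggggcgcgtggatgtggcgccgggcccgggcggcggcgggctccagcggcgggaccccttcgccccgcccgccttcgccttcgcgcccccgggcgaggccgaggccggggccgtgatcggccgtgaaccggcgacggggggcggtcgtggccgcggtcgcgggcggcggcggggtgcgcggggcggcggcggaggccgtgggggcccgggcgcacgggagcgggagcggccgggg
Both strings were found in the window of Tgfbr2, the Smad box starting at base 91 and the PU.1-type string at base 194 of the window. Both were also found before the internal start of Tgfbr1, at bases 48 and 156. These letters do not occur in the windows of Tgfb1, of the main Tgfbr1 start or of Ski. Of all 32817 promoter windows of this length, 10.6% hold GAGGAAG and 42.2% hold CAGAC, so these matches describe the windows and nothing more. The GC content was 75.2% for Tgfb1, 74.8% for the main Tgfbr1 start, 52.8% for its internal start, 58.4% for Tgfbr2 and 87.6% for Ski. The deposited counts are per gene and do not separate the starts of Tgfbr1.

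The first comparison asked what the pulldown held relative to whole tissue of the same old late-induced mice. All 10 members differed: 7 were higher in TRAP, where 30.4% of all 14596 genes tested were called higher, and 3 were lower, where 28.8% were called lower. Genes are called where edgeR's quasi-likelihood test gave a p under 0.05 after Benjamini-Hochberg adjustment over all genes tested. Since most genes of the table were called in 1 direction or the other, the sizes carry the description: over all genes the median log2 difference was -0.02, and Tgfb1, Tgfbr1 and Tgfbr2 were above 3. In bulk RNA, more cells of a type and more RNA per cell cannot be told apart, here and in the age comparisons.

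Of the ligands, Tgfb1 (identifier 21803, chromosome 7, 25687002 to 25704996) was the enriched one. Its level ran from 6.26 through a median of 8.59 to 12.1 CPM in the 7 inputs and from 124 through 153 to 220 CPM in the 7 TRAP libraries. The groups were far apart, and TRAP replicates 3 and 5, the libraries with the highest microglial marker sums, also had the most Tgfb1. The mean CPM was 8.85 ± 2.24 for input and 162 ± 35.2 for TRAP (SD, n = 7 each), and the fitted log2 difference 4.18 ± 0.13 (SE, edgeR adjusted p = 4.0e-14). Within animals the TRAP to input ratio was 12.7 to 23.7, with a median of 18.8. The summed microglial markers gave 16.2 to 20.8 with a median of 18.1, and Cx3cr1, the gene whose promoter drives cre, 13.7 to 21.5 with a median of 17.6. The median of Tgfb1 thus lay between those of 2 markers of the tagged cells, P2ry12 (17.5) and Csf1r (20.5).

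Tgfb2 and Tgfb3, ligands with the same receptors, moved the other way. Tgfb2 (identifier 21808, chromosome 1, 186623186 to 186705992) ran from 43.5 through 47.9 to 61.3 CPM in input and from 25.1 through 36.6 to 40.5 CPM in TRAP. No TRAP library reached the lowest input, and the log2 fold change was -0.55 ± 0.09 (SE; edgeR adjusted p = 3.5e-05). Tgfb3 (identifier 21809, chromosome 12, 86056743 to 86079041) ran from 14.6 through 16.1 to 21.4 CPM in input and from 7.93 through 9.04 to 13.1 CPM in TRAP. Again the groups did not overlap, and Tgfb3 was lower in 7 of 7 animals, with ratios of 0.496 to 0.625 and its log2 difference was -0.81 ± 0.11 (SE, edgeR adjusted p = 1.0e-05). Among the marker lists lower in TRAP, the median log2 fold change was -0.17 for neurons, -0.53 for astrocytes, -0.52 for mural cells and -1.33 for oligodendrocytes. It was -1.34 for oligodendrocyte precursors, -1.32 for fibroblasts and meninges, -2.08 for choroid plexus and -2.32 for blood. Which cells gave the Tgfb2 and Tgfb3 reads was not tested.

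Itgb8 (identifier 320910, chromosome 12, 119162803 to 119238276), the subunit of the integrin that releases active TGF-beta, was low in both fractions. It ran from 10.2 through 13.6 to 19.4 CPM in input and from 8.57 through 10.2 to 11.9 CPM in TRAP. The groups overlapped, and 3 of 7 TRAP libraries lay below every input. Itgb8 was lower in TRAP in 6 of 7 animals, with 1 ratio of 1.05 in animal 4, and its log2 fold change was -0.50 ± 0.13 (SE; edgeR adjusted p = 0.0034).

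**Figure D1:**
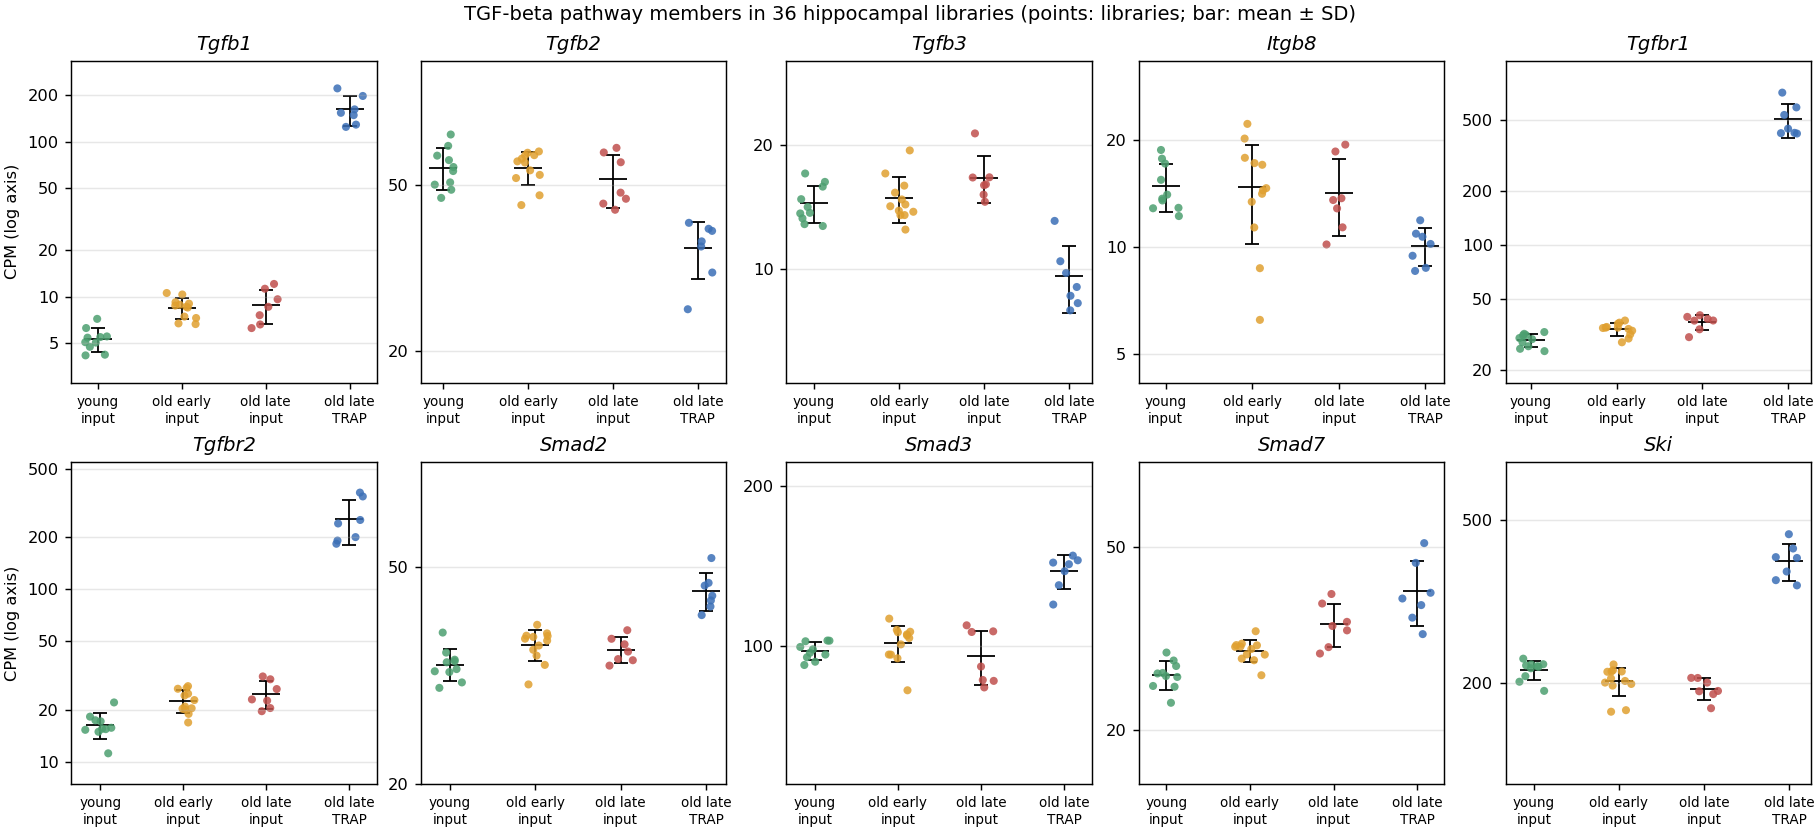
CPM of the 10 members in each of the 36 libraries (log axis; points are libraries, bars the mean ± SD of 10, 12, 7 and 7 libraries). Tgfb1, Tgfbr1 and Tgfbr2 lie far above every input library in TRAP, while the ligands Tgfb2 and Tgfb3 have their lowest levels in TRAP.

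Both receptors were enriched with Tgfb1. Tgfbr1 (identifier 21812, chromosome 4, 47353305 to 47414924), the type I receptor kinase, ran from 30.7 through 38 to 40.7 CPM in input and from 420 through 448 to 711 CPM in TRAP. Tgfbr2 (identifier 21813, chromosome 9, 116087695 to 116175363), which binds the ligand, ran from 19.7 through 23.1 to 31.4 CPM in input and from 184 through 241 to 363 CPM in TRAP. As for Tgfb1, TRAP replicates 3 and 5 were the highest and no TRAP library came near an input. The log2 fold change was 3.76 ± 0.11 (SE; edgeR adjusted p = 3.0e-14) for Tgfbr1 and 3.33 ± 0.15 (SE; edgeR adjusted p = 6.3e-12) for Tgfbr2. Within animals the ratios were 10.6 to 17.5 for Tgfbr1 and 7.68 to 13.7 for Tgfbr2. In every animal both receptors had a lower ratio than the summed microglial markers, and the mean share of Tgfbr2 in the marker sum was 2.59% in input and 1.42% in TRAP, that of Tgfbr1 3.90% and 2.88%, a description with no test. Tgfb1 was 0.912% of the marker sum in input and 0.918% in TRAP. Endothelial markers, from cells that also use these receptors, summed to 73.2 to 110 CPM in input and 162 to 283 CPM in TRAP; their part in the receptor values was not tested.

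**Figure D2:**
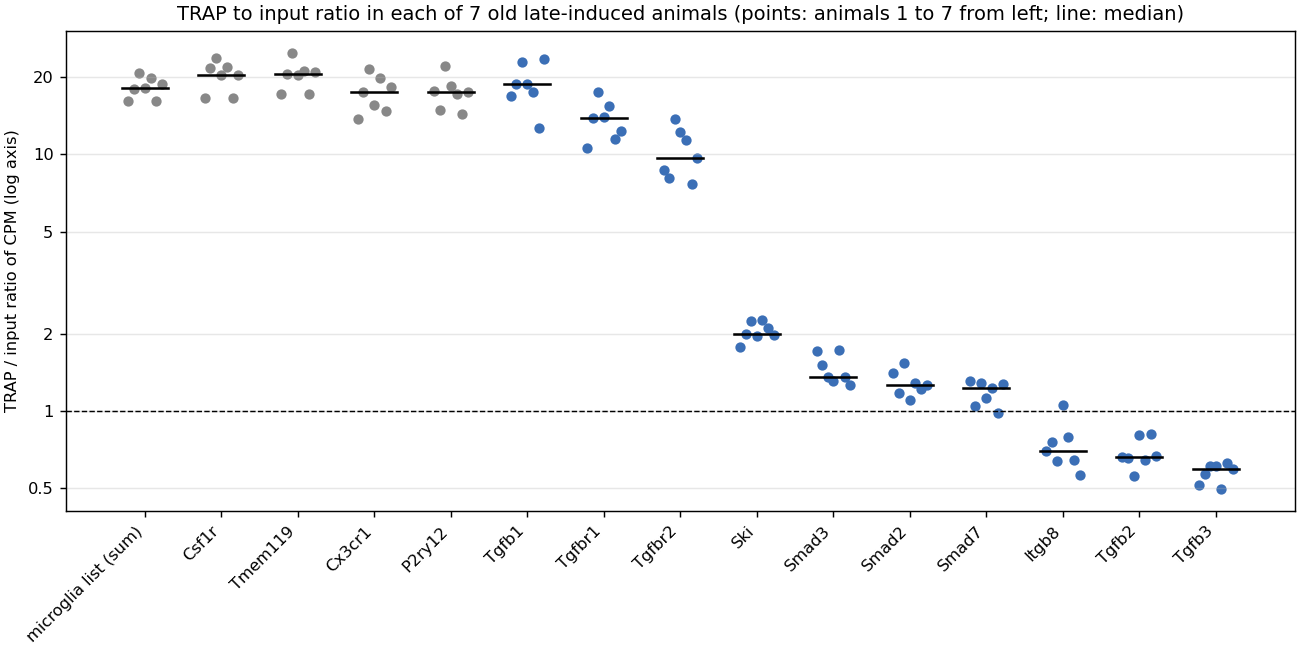
TRAP to input ratio of CPM (log axis) in each of the 7 old late-induced animals, for the microglial marker sum, 4 markers and the 10 members; points run from animal 1 to 7 and lines are medians. Tgfb1 lies among the markers, Tgfbr1 and Tgfbr2 below them with medians of 13.8 and 9.71, and the other members between 0.496 and 2.27.

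The Smads and Ski, which act inside nearly all cell types, differed less. Ski (identifier 20481, chromosome 4, 155154075 to 155222535) ran from 173 through 191 to 206 CPM in input and from 346 through 404 to 462 CPM in TRAP. It was near 2-fold in every animal, with ratios of 1.78 to 2.27, and its log2 fold change was 1.02 ± 0.05 (SE; edgeR adjusted p = 5.0e-11). The entry of Ski overlaps that of Gm19313 on the same strand, so reads of the shared stretch may be divided between them. Smad3 (identifier 17127, chromosome 9, 63646767 to 63757994) ran from 83.4 through 91.3 to 109 CPM in input and from 119 through 142 to 148 CPM in TRAP, with no overlap. Its log2 fold change was 0.53 ± 0.07 (SE; edgeR adjusted p = 3.0e-06).

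Smad2 (identifier 17126, chromosome 18, 76241701 to 76311747), the close relative of Smad3, ran from 32.9 through 34.96 to 38.3 CPM in input and from 40.8 through 44.3 to 51.9 CPM in TRAP. These groups did not overlap either, and the log2 fold change was 0.35 ± 0.06 (SE; edgeR adjusted p = 1.1e-04). Smad7 (identifier 17131, chromosome 18, 75367365 to 75395934), the receptor-blocking Smad, ran from 29.3 through 33.6 to 39.5 CPM in input and from 32.3 through 38.6 to 50.9 CPM in TRAP. Only 3 of 7 TRAP libraries lay above every input, the ratio was above 1 in 6 of 7 animals, and the log2 fold change was 0.23 ± 0.09 (SE; edgeR adjusted p = 0.046). This call rests on the scaling: with upper quartile scaling, which moves the median of all genes to -0.17, Smad7 was at 0.08 (edgeR adjusted p = 0.44), and 7 of 14 fits with a library left out also lost it. With the animal as block the edgeR adjusted p was 0.0063.

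Compared per length (CPM per kilobase of merged exons in GENCODE M21), the order of the members differed between whole tissue and pulldown. In old late-induced input, Ski led at 34.8 ± 2.07 CPM per kilobase, followed by Smad3 at 17.2 ± 2.04 and Tgfb2 at 8.89 ± 1.29 (SD, n = 7). Smad7 (7.51 ± 0.81) overlapped Tgfb2 and lay above Tgfbr1 in every library. Tgfbr1 (5.68 ± 0.54) overlapped Tgfb3 (4.92 ± 0.66), which overlapped Smad2 (4.01 ± 0.22), and Smad2 overlapped Tgfbr2 (3.04 ± 0.56), whose range lay just above that of Tgfb1. Tgfb1 (1.75 ± 0.44) and Itgb8 (1.29 ± 0.31) were the least abundant per length and overlapped each other.

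In TRAP, Tgfbr1 at 77.6 ± 17.01 and Ski at 71.2 ± 7.30 CPM per kilobase were the highest and did not differ beyond their spread (SD, n = 7). Tgfb1 (32.1 ± 6.98) and Tgfbr2 (31.02 ± 8.93) followed and overlapped each other and Smad3 (24.9 ± 1.80). Smad7 (8.85 ± 1.43) lay above Tgfb2 (6.08 ± 0.94) in every library, Tgfb2 overlapped Smad2 (5.13 ± 0.42), and Tgfb3 (2.83 ± 0.52) and Itgb8 (0.91 ± 0.11) were last. Per length, Tgfb1 thus was the ninth of the 10 members in this input and the third in TRAP, and Tgfb2 was the third and the seventh.

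The next comparisons asked which members differed with age in whole hippocampus. Both old groups were compared with the same 10 young inputs, so the comparisons share their controls and are given side by side. These young mice were all early-induced, so in the late-induced comparison age and induction cannot be told apart. Of the 10 members, 5 were higher and 0 lower in old early-induced mice, where 13% of 14948 genes were called higher and 12.6% lower. In old late-induced mice 4 were higher and 1 lower, where 17% of all genes were called higher and 17.5% lower. Tgfb1, Tgfbr1, Tgfbr2 and Smad7 were the members higher in both.

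Tgfb1 had the largest age difference of the members in either comparison. It ran from 4.17 through 5.25 to 7.18 CPM in young, from 6.64 through 8.67 to 10.5 CPM in old early-induced and from 6.26 through 8.59 to 12.1 CPM in old late-induced inputs. The groups overlapped little: young replicate 7, at 7.18 CPM, lay above 2 libraries of each old group, and the next young library was at 6.26 CPM. The log2 fold change was 0.68 ± 0.11 (SE; edgeR adjusted p = 6.1e-05) in early-induced and 0.73 ± 0.13 (SE; edgeR adjusted p = 8.4e-05) in late-induced mice. The microglial markers also differed: 14 of 15 were higher in the old early group and 15 of 15 in the old late one, with median log2 fold changes of 0.47 and 0.68. Oligodendrocyte markers were higher in 8 and 9 of 10 cases (medians 0.34 and 0.49) and blood markers in 2 and 4 of 4 (medians 0.93 and 1.47); the part of these cells in the member values was not tested. As a share of the summed microglial markers, Tgfb1 was 0.925% ± 0.144 in young, 1.04% ± 0.17 in the old early and 0.912% ± 0.135 in the old late groups (SD, n = 10, 12 and 7), with overlapping ranges. The single markers differed unevenly, with log2 fold changes of 0.09 to 0.95 in the old early and 0.23 to 1.19 in the old late group. This share and those below thus depend on which markers are summed.

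Tgfbr2 ran from 11.3 through 15.7 to 22.2 CPM in young, from 16.98 through 21.9 to 27.6 CPM in old early-induced and from 19.7 through 23.1 to 31.4 CPM in old late-induced inputs. Young replicate 6, at 22.2 CPM, lay above the median of the old early-induced group and above 2 of 7 old late-induced libraries, and the next young library had 18.4 CPM. The log2 fold change was 0.47 ± 0.10 (SE; edgeR adjusted p = 7.5e-04) and 0.62 ± 0.11 (SE; edgeR adjusted p = 1.1e-04). In females alone the first was 0.42 and no longer called (edgeR adjusted p = 0.095). As a share of the microglial markers, Tgfbr2 was 2.87% ± 0.54, 2.79% ± 0.50 and 2.59% ± 0.32 in the same order.

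Tgfbr1 had a smaller difference. It ran from 25.6 through 30.1 to 32.8 CPM in young, from 28.7 through 34.6 to 37.99 CPM in old early-induced and from 30.7 through 38 to 40.7 CPM in old late-induced inputs, where 6 of 7 libraries lay above every young one. Its log2 fold change was 0.20 ± 0.05 (SE; edgeR adjusted p = 0.0053) and 0.33 ± 0.06 (SE; edgeR adjusted p = 1.4e-04). Against the microglial markers Tgfbr1 was 5.17% ± 0.51 in young and 4.18% ± 0.36 and 3.90% ± 0.41 in the old groups, so it was a smaller share of the marker sum in old mice; this share was not tested. The share of Tgfbr1 in the marker sum in TRAP was 2.88% ± 0.19 (SD, n = 7).

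Smad7 was the Smad with the clearest age difference. It ran from 22.9 through 26.3 to 29.5 CPM in young, from 26.3 through 30.2 to 32.8 CPM in old early-induced and from 29.3 through 33.6 to 39.5 CPM in old late-induced inputs. Its log2 fold change was 0.19 ± 0.05 (SE; edgeR adjusted p = 0.0058) and 0.38 ± 0.06 (SE; edgeR adjusted p = 7.3e-06), although its TRAP to input ratio was close to 1. Smad2 ran from 29.99 through 32.9 to 37.9 CPM in young, from 30.4 through 36.8 to 39.1 CPM in old early-induced and from 32.9 through 34.96 to 38.3 CPM in old late-induced inputs. The groups overlapped almost fully, and Smad2 was called only in the early-induced mice, at 0.13 ± 0.04 (SE; edgeR adjusted p = 0.029); leaving out 1 library ended that call in 10 of 29 fits. In late-induced mice it was 0.10 ± 0.05 (SE; edgeR adjusted p = 0.12).

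Ski was the only member called lower in old mice. It ran from 191 through 219 to 229 CPM in young, from 170 through 203 to 222 CPM in old early-induced and from 173 through 191 to 206 CPM in old late-induced inputs. All 7 old late-induced libraries lay below the young median and 4 below every young library. The log2 fold change was -0.09 ± 0.04 (SE; edgeR adjusted p = 0.11) in early-induced and -0.15 ± 0.05 (SE; edgeR adjusted p = 0.017) in late-induced mice. The second call was lost in females alone (-0.08, edgeR adjusted p = 0.26) and without old late-induced replicate 2 (-0.12, edgeR adjusted p = 0.066).

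Tgfb2, Tgfb3, Itgb8 and Smad3 were not called in either age comparison. Tgfb2 ran from 46.5 through 54.5 to 66.0 CPM in young and from 44.7 through 56.7 to 60.1 CPM in old early-induced inputs, with a log2 fold change of 0.02 (95% interval -0.12 to 0.15), and of -0.06 (-0.22 to 0.09) in late-induced mice. Tgfb3 ran from 12.7 through 13.9 to 17.1 CPM in young and from 12.5 through 14.3 to 19.4 CPM in old early-induced inputs, at 0.05 (-0.10 to 0.20). In late-induced mice all 7 libraries of Tgfb3 were above the young median, and its 0.21 ± 0.09 (SE) had an edgeR adjusted p of 0.0518, which 5 of 10 other settings and 4 of 29 leave-outs brought below the threshold. Smad3 had the tightest young group, from 91.9 through 97.6 to 102 CPM, against 82.4 through 104 to 112 CPM in old early-induced and 83.4 through 91.3 to 109 CPM in old late-induced inputs. Its log2 fold change was 0.05 (-0.04 to 0.14) and -0.04 (-0.15 to 0.07).

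Itgb8 was the most variable member within the old early-induced group. It ran from 12.2 through 13.9 to 18.7 CPM in young and from 6.25 through 14.5 to 22.2 CPM in old early-induced inputs, a coefficient of variation of 15.5% against 30.8%. The lowest value came from old early-induced replicate 5, the library that stood apart, and that library also had the lowest Smad2 and Smad3 of its group. The log2 fold change of Itgb8 was -0.04 (95% interval -0.32 to 0.23) and -0.13 (-0.44 to 0.19). When replicate 5 and young replicate 6, the library with the highest Tgfbr2 and the lowest Ski, Smad2 and Smad3 of the young group, were left out together, the member calls of both age comparisons were the same in number. Tgfb1 was then at 0.64 and 0.70, Tgfbr2 at 0.52 and 0.69, Tgfbr1 at 0.18 and 0.31 and Smad7 at 0.18 and 0.38.

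**Figure D3:**
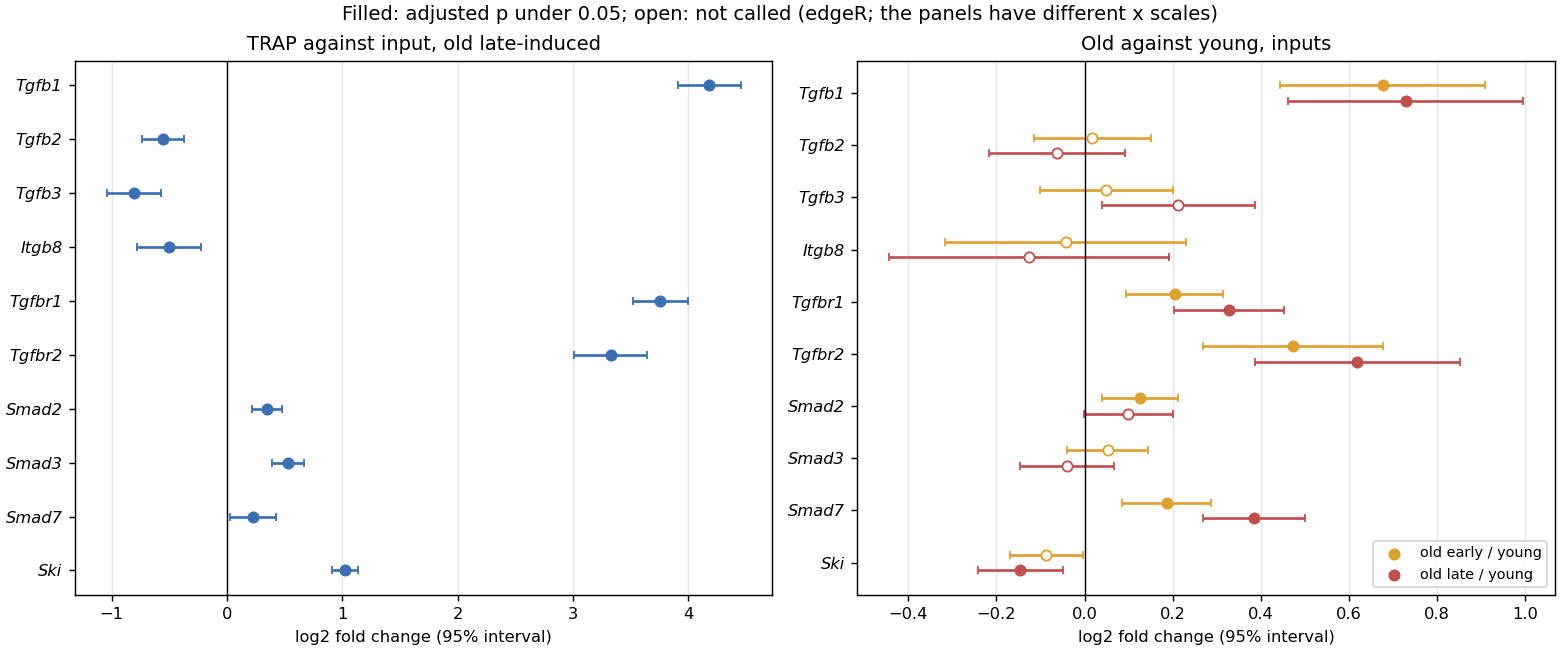
Log2 fold change of each member with its 95% interval, for TRAP against input (left) and for each old group against young inputs (right, on a narrower axis); filled points have an edgeR adjusted p under 0.05. The left panel runs from -0.81 for Tgfb3 to 4.18 for Tgfb1, and on the right no member exceeds 0.73.

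The induction age was compared between the inputs of old late-induced and old early-induced mice. None of the 10 members was called, against 0.0334% of all genes (5 of 14948; 1736 had an unadjusted p under 0.05). At an unadjusted p under 0.05 were Smad7, at a log2 difference of 0.20 ± 0.05 (SE, edgeR adjusted p = 0.16), and Tgfbr1, at 0.12 ± 0.06 (SE; edgeR adjusted p = 0.41). Smad7 was above every early-induced library in 5 of 7 late-induced ones, with medians of 33.6 and 30.2 CPM. DESeq2 and limma voom also called 0 members. For Tgfb1 the difference was 0.05 (95% interval -0.20 to 0.30) and for Tgfbr2 0.15 (-0.08 to 0.37), so these inputs do not set them apart, nor do they show them equal. In this comparison 1 library weighs heavily on the background: without old early-induced replicate 5, 164 genes were called, still without any member.

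Between the sexes, 0 of 10 members were called over all 29 inputs, against 0.174% of all genes (26 of 14948; 1632 had an unadjusted p under 0.05). Itgb8 and Smad3 were at an unadjusted p under 0.05. Itgb8 was at -0.35 ± 0.12 in males against females (SE; edgeR adjusted p = 0.31). In old early-induced mice Itgb8 was 6.25, 8.72, 11.4, 14.1 and 17.01 CPM in the 5 males. It ran from 13.4 through 17.2 to 22.2 CPM in the 7 females, so 3 males lay below every female. The lowest value came from replicate 5 and the next from replicate 2. These were the libraries furthest from the mean of that group (root mean square distance 0.391 and 0.307 on the log2 scale). In young mice the ranges were 12.2 to 17.7 and 12.8 to 18.7 CPM and overlapped almost fully. Smad3 was at -0.08 ± 0.04 (SE; edgeR adjusted p = 0.45). DESeq2 and limma voom called 0 members as well.

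Around the members, 108 other genes of the pathway were read in 6 lists. Over all of them, 39 of 100 tested were higher and 36 lower in TRAP, against 30.4% and 28.8% of all genes. In old early-induced mice 22 of 102 were higher and 16 lower, against 13% and 12.6% of all genes. In old late-induced mice 31 were higher and 18 lower, against 17% and 17.5%. By induction age or sex 0 were called, against 0.0334% and 0.174%. These shares are the background of the counts of each list below, and counts near them describe the list only. The list of other ligands and antagonists had 0 of 22 genes higher and 13 lower in TRAP (median log2 fold change -0.64, against -0.02 over all genes). The largest decreases were in Bmp7 (-1.29 ± 0.18), Bmp6 (-1.23 ± 0.20), both bone morphogenetic proteins, and Inhbb (-0.94 ± 0.13, SE), an activin subunit. Tgfb1 was thus higher in TRAP where no gene of that list was called higher.

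Genes of latency, storage and activation were split, with 8 of 17 higher and 6 lower in TRAP (median 0.11). The integrin subunits Itgb5 (3.75 ± 0.12) and Itgb3 (2.97 ± 0.20) and Nrros (2.26 ± 0.11, SE), which tethers latent Tgfb1 on microglia, rose most. Mean CPM of Itgb5 was 113 ± 11 for input and 1554 ± 364 for TRAP (SD, n = 7 each), against 14.2 and 10.1 CPM for Itgb8. The matrix proteoglycans Dcn (-1.27 ± 0.20) and Bgn (-1.18 ± 0.18) and the latent-complex binder Ltbp1 (-0.76 ± 0.17, SE) fell most. The 6 markers of fibroblasts and meninges, which include Dcn, were all lower in TRAP.

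Among other receptors and co-receptors, 2 of 12 were higher and 6 lower in TRAP (median -0.20). The co-receptor Eng (2.40 ± 0.10) and the type I receptor Acvrl1 (1.85 ± 0.11, SE), both known from endothelium, rose, beside the endothelial markers that were higher in 8 of 8 cases with log2 fold changes of 0.56 to 1.70; the part of these cells was not tested. Tgfbr3 (-0.76 ± 0.10), the co-receptor that presents Tgfb2, Bmpr1b (-0.71 ± 0.10) and Acvr2a (-0.45 ± 0.09, SE) fell most. Of other Smads and their regulators, 11 of 21 were higher and 4 lower (median 0.30). The nuclear repressors Tgif1 (3.01 ± 0.18) and Tgif2 (1.14 ± 0.15) and the feedback inhibitor Pmepa1 (2.38 ± 0.05, SE) rose most, the last from 42.0 ± 3.24 to 221 ± 18.7 CPM (SD, n = 7 each). Usp9x (-0.70 ± 0.06), a deubiquitinase, fell most. Smad4, the shared partner of Smad2 and Smad3, picked here after its value was seen, was at 0.35 ± 0.07 (SE), near the value of Smad2.

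Common targets of TGF-beta were split, with 6 of 16 higher and 7 lower in TRAP (median -0.12). The secreted Tgfbi (2.25 ± 0.21, SE) was among those that rose most, and the collagen genes Col1a2 (-1.61 ± 0.29) and Col1a1 (-0.93 ± 0.19, SE), which are also markers of fibroblasts, fell most. All 12 genes listed as microglial genes that need TGF-beta were higher (median 4.25, from 2.33 to 4.41), led by Olfml3 (4.41 ± 0.11), Tmem119 (4.33 ± 0.08) and Csf1r (4.32 ± 0.10, SE). Whether each of them, such as the general microglial marker Csf1r, needs TGF-beta was not tested. Of these 12, 7 are also in the list of microglial markers.

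**Figure D4:**
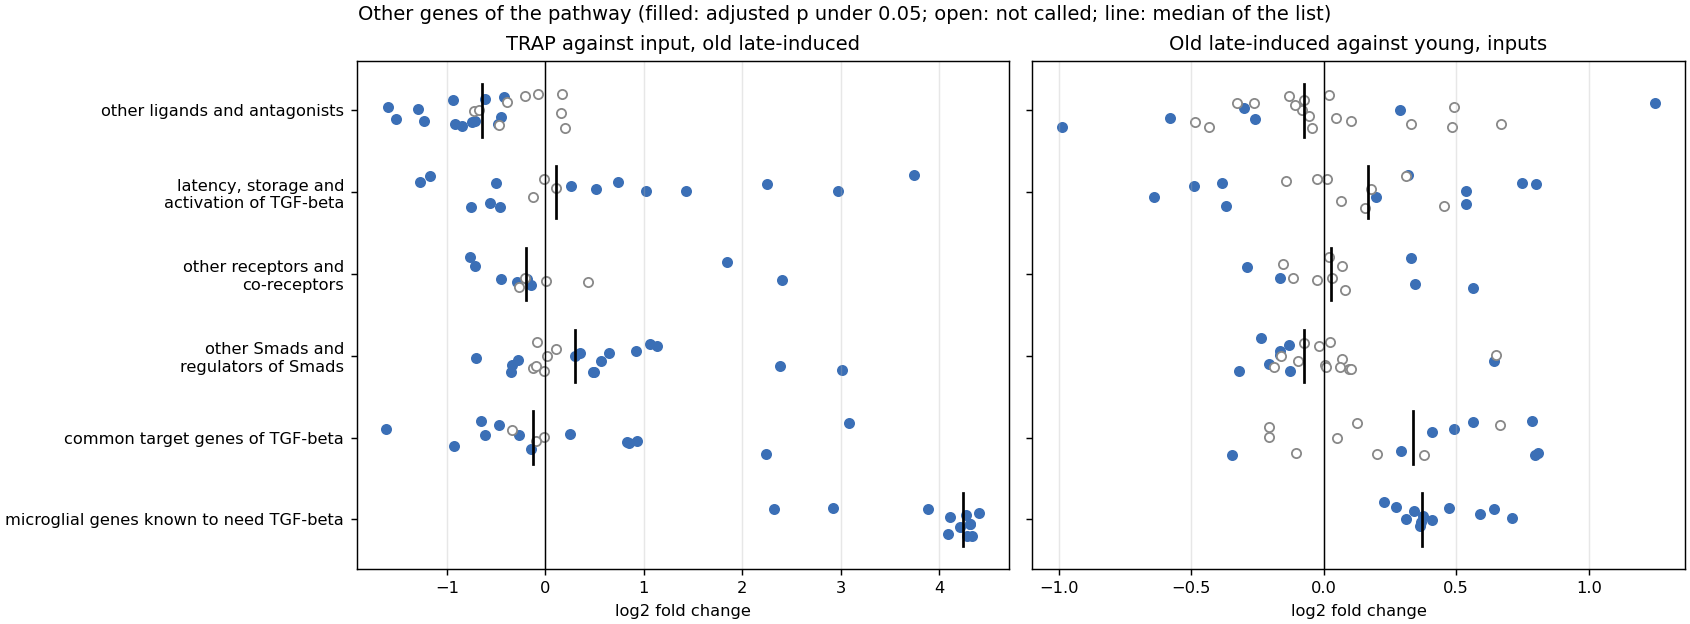
Log2 fold changes of the other pathway genes by list, for TRAP against input (left) and old late-induced against young inputs (right, on a narrower axis); filled points have an edgeR adjusted p under 0.05 and lines are list medians. On the left the list of microglial genes has its median at 4.25 and that of ligands and antagonists at -0.64, while on the right the medians lie between -0.08 and 0.37.

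With age, 10 of 12 genes listed as microglial genes that need TGF-beta were higher in the first old group, and 12 of 12 in the late-induced one. Their medians were 0.30 and 0.37, against 0.01 over all genes in both comparisons. The microglial markers, some of which are the same genes, had larger medians of 0.47 and 0.68. In the list, Gpr34 (0.63 and 0.71) and Olfml3 (0.43 and 0.59) were among the genes that rose most. Common targets had 4 of 16 higher and 1 lower in early-induced mice and 7 higher and 1 lower in late-induced mice. Junb, an immediate early transcription factor, rose by 0.81 ± 0.08 and 0.80 ± 0.09, and Ctgf, a matricellular protein, by 0.70 ± 0.16 and 0.79 ± 0.18 (SE). Cdkn1a, a cell cycle inhibitor, fell by 0.72 ± 0.11 and 0.35 ± 0.12 (SE), from 24.8 ± 4.12 CPM in young (n = 10) to 14.9 ± 2.85 (n = 12) and 19.4 ± 2.96 CPM (n = 7, SD).

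Of the genes of latency, storage and activation, 4 of 18 were higher and 3 lower in old early-induced mice and 6 higher and 4 lower in old late-induced mice. Over all genes, 13% were called higher and 12.6% lower in the first comparison, and 17% and 17.5% in the second. Itgb5 rose by 0.33 ± 0.06 and 0.54 ± 0.07, the ligand-activating Thbs1 by 0.71 ± 0.18 and 0.75 ± 0.21, and Lrrc32, a tether of latent TGF-beta, by 0.72 ± 0.22 and 0.80 ± 0.25 (SE). Nrros, the tether used by microglia, fell by 0.38 ± 0.10 and 0.49 ± 0.12 (SE; edgeR adjusted p = 0.0057 and 0.0019). It went from 9.73 ± 1.38 CPM in young to 7.50 ± 1.33 and 7.00 ± 1.05 CPM in old inputs (SD, n = 10, 12 and 7), and it was at 33.7 ± 6.63 CPM in TRAP. Nrros therefore differed in direction from Tgfb1, Itgb5 and the microglial markers, although it was enriched in TRAP with them. Among the fibrillins, which anchor latent complexes, Fbn1 fell by 0.40 ± 0.12 and 0.39 ± 0.14 (SE).

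Of 12 other receptors, 3 were higher and 2 lower in each old group: Acvrl1 (0.39 and 0.56), Bmpr1b (0.33 and 0.34) and Eng (0.29 and 0.33) rose, and Acvr2a (-0.18 and -0.29) and Acvr1b (-0.11 and -0.17) fell. The shares over all genes were 13% higher and 12.6% lower in early-induced mice, and 17% and 17.5% in late-induced mice. Of 21 other Smads and regulators, 0 were higher and 6 lower in early-induced and 1 higher and 7 lower in late-induced mice. Nedd4l, a ubiquitin ligase for Smads and receptors, fell by 0.29 ± 0.03 and 0.32 ± 0.04 (SE), from 191 ± 6.50 to 157 ± 10.7 and 153 ± 9.20 CPM (SD, n = 10, 12 and 7). Of 23 other ligands and antagonists, 1 was higher and 4 lower in early-induced and 2 higher and 4 lower in late-induced mice. Bmp1, which encodes a protease despite its name, fell by 0.75 ± 0.10 and 0.99 ± 0.12, and the antagonist Chrd by 0.31 ± 0.08 and 0.58 ± 0.09 (SE).

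The genes most like the enriched members across the 36 libraries were found by the root mean square difference of centred log2 CPM, among 12990 genes. For Tgfb1, whose own deviation was 1.80, they were Laptm5 (0.235), Cx3cr1 (0.235) and C1qb (0.236), the last a complement component and microglial marker. For Tgfbr1, with a deviation of 1.56, they were Slco2b1 (0.150), Cyth4 (0.151) and Rgs10 (0.168). For Tgfbr2, with a deviation of 1.46, they were Syngr2 (0.171), Ctsd (0.179), a lysosomal protease, and Msn (0.196). For Ski, with a deviation of 0.395, they were Ulk2 (0.0942), Sh3pxd2a (0.0966) and Kdm2b (0.0975). The contrast of TRAP and input makes up most of the deviation of the first 3 members, so these distances mainly compare enrichment.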

How the data were processed

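PolyA RNA of mouse hippocampus was measured in 29 inputs and 7 TRAP libraries. The authors deposited estimated counts per gene, marked raw per the file headers, of which 77.2% of nonzero values were not whole (tolerance 1e-06). The genome build mm10 and DESeq2 are named, without a role, per the submitters' processing notes. Aligner, counting tool and strand handling are not given in the sources used here, so values of overlapping genes and paralogs are uncertain. Gene coordinates are those of the deposited table.

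Counts were rounded and tested with edgeR 4.0.16 in R 4.3.3 (filterByExpr by group, minimum count 10, TMM, glmQLFit, glmQLFTest, Benjamini-Hochberg). TRAP against input was fitted on 14 libraries with sex, and the other contrasts on all 29 inputs with group and sex. Standard errors and 95% intervals follow from the F statistic of that test. Printed CPM use TMM effective library sizes over all 36 libraries. Precision is limited by the number of animals and by totals of 12.9 to 20.4 M.

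Groups, sex and animals came from the labels; replicate numbers only name samples, except that TRAP and late-induced input replicates with a shared number come from 1 animal, matched by animal number. Deviations of an animal's 2 libraries correlated at 0.381 to 0.558 in all 7 pairs. Between different animals the correlations ran from -0.421 to 0.351 (median -0.102). Deviations were taken from the group mean, which by construction lowers the values between different animals. The pulldown fit without the animal as block is the reported one.

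Lists held 188 genes, of which 187 were matched, 3 by identifier. The members and lists were chosen with earlier results of these data known, so no list is independent evidence of a direction. Beside the members, a pathway gene is named if called and among the 3 largest increases or decreases of its list with an average log2 CPM over 1, except that results of 2 such genes are not reported here; likeness was computed for members with a called log2 fold change of at least 1 in TRAP (prior count 2). Promoters are from RefSeq on GRCm38.p6. Alternatives were other scalings, no filter, DESeq2 1.42.0, limma voom (limma 3.58.1), females only, no sex covariate, an animal block, fewer groups and each library left out.

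The other marker lists had these counts of genes higher and lower in TRAP: neurons 0 and 5 of 10, oligodendrocyte precursors 0 and 6 of 6, mural cells 0 and 4 of 7, choroid plexus 0 and 5 of 6, and blood 0 and 4 of 4. Acta2, a mural marker, is listed at 0 in all libraries. Choroid plexus markers summed to 50.0 to 3099 CPM in young, 47.6 to 4121 in old early-induced and 48.8 to 3464 in old late-induced inputs. The medians of these sums were 2008, 109 and 2025 CPM in the same order. Their median log2 fold change was -0.63 for old early-induced and 0.34 for old late-induced against young inputs. For late against early induction it was 1.01, and no choroid plexus marker was called in these comparisons. The part of choroid plexus in the member values was not tested.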

Additional observations from a re-analysis of the deposited data

Results flagged for a closer look

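Tgfb3 in old late-induced input replicate 4 lay apart from the other 6 libraries of its group, at 21.4 CPM against 16.7 for the next, a gap of 0.685 of the whole range (limit 0.568 for 7 samples). It was 1 of 30 sets of member values in groups of 7 or 10 libraries that were examined in this way, where chance gives about 1.5. Without this library the log2 fold change of Tgfb3 against young inputs was 0.14 (edgeR adjusted p = 0.21). The TRAP library of the same animal had the highest Tgfb3 of the pulldowns, 13.1 CPM. The group of 12 old early-induced inputs was too large for this rule.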

How the results depend on the processing

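Of 1770 recomputed member fold changes, 1731 kept their side of the threshold, 27 called ones lost it, 12 gained it, and no called one changed sign. The number of members called was 9 to 10 for TRAP, 4 to 5 for old early-induced and 4 to 7 for old late-induced against young, and 0 by induction age and sex in every setting. With the animal as replicate block, 9330 genes (4650 higher, 4680 lower) and all 10 members were called in TRAP, and no member call changed. Smad7 in TRAP lost its call with size factors (0.21), upper quartile (0.08), library size (0.12), DESeq2 (0.21), voom (0.22) and in females (0.23). Upper quartile scaling lowered the share of higher calls in TRAP from 51.4% to 34% and library size scaling to 38.3%; in old early-induced against young, upper quartile raised it from 50.7% to 59.4%.

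Over all genes, females only gave 1198 calls for old early-induced and 2787 for old late-induced against young, where all mice gave 3826 and 5151, from fewer samples. For late against early induction, 5 genes became 58 with DESeq2, 182 in females, 0 with only these 2 groups in the fit, and 150 without old early-induced replicate 5 and young replicate 6 (chosen after seeing the data); leaving out 1 library gave 0 to 164. For sex, 26 became 64 with DESeq2 and 12 in early-induced mice, and 17 to 32 with 1 library left out. The cause was not tested. Small age differences near 0.1 on the log2 scale, as for Smad2 and Ski, are at the limit of what these groups resolve.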

Other observations

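In the pulldowns, the 2 male libraries had less Tgfb1 and less Ski than any of the 5 female libraries. Tgfb1 was 124 and 129 CPM in males and ran from 148 through 161 to 220 CPM in females, and Ski was 346 and 356 CPM against 374 through 406 to 462 CPM. Tgfb2 went the other way, at 39.2 and 40.52 CPM in males against 25.14 through 35.55 to 38.75 CPM in females. In the inputs of the same animals Tgfb2 was 59.76 and 61.3 CPM in males and 43.55 to 56.62 CPM in females. Choroid plexus markers summed to 48.8 to 3464 CPM in these inputs, highest in male replicate 1, with 3325 CPM in the next library. In the pulldowns they summed to 25.7 to 1226 CPM, highest in male replicate 2, with 1173 CPM in the next. The part of choroid plexus in the Tgfb2 values was not tested. Tgfbr1, at 423 and 424 CPM in males, was inside the female range of 420 to 711 CPM. The TRAP to input ratio of the summed microglial markers was 16.2 and 17.96 in the 2 males and 16.2 to 20.8 in the 5 females. No test was made, since 2 males against 5 females were not a comparison of the study and the ratio of Tgfb1, 16.97 and 18.8 in males, was inside the female range of 12.7 to 23.7.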
